A study of Mus musculus with 48 samples.

Results

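The genes described here are 10 mouse genes of the pericentral liver zone and of Wnt signaling, out of 46517 genes counted in the study. They are *Glul*, *Cyp2e1*, *Oat*, *Rhbg*, *Slc1a2*, *Lect2*, *Gulo*, *Axin2*, *Lgr5* and *Tbx3*. They were taken by name and not by a rule on measured values, but earlier results of these data were known. Each symbol matched 1 gene identifier. RNA was sequenced by Smart-seq3 from 5 explants, 3 livers, 3 hepatocyte preparations, 3 irises and 2 samples of spheroids kept in vitro, all labelled WT Albino and C57BL/6N, from adult mice. An explant is a liver spheroid transplanted to the front chamber of the mouse eye (ACE), where it engrafts on the iris, and taken out at 2 months post-tx together with the iris around it. The irises carried no graft, the livers were those of donor mice, and the hepatocyte preparations were liver cells freshly isolated by collagenase perfusion, enriched for hepatocytes and also used to form the spheroids. The labels give neither the sex of the animals nor whether replicates came from separate animals, so p-values measure the spread between these samples, which may be partly technical. Each sample was sequenced as 3 technical libraries, which were summed here, and totals ran from 2718518 to 6789648 counts per sample.

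Hepatocytes differ along the axis from the portal tract to the central vein of the liver lobule. Endothelial cells of the central vein release Wnt ligands and R-spondins, and β-catenin in the neighbouring hepatocytes then keeps pericentral genes on and periportal genes off. Pericentral hepatocytes take up glutamate and ammonium and build glutamine from them, and they carry much of the cytochrome P450 metabolism of the liver, while periportal hepatocytes make urea and glucose. *Axin2*, *Lgr5* and *Tbx3* are Wnt targets in many other tissues too, and glutamine synthetase is made by glia of the eye.

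β-catenin acts on DNA through TCF/LEF factors. The 250 bases before the RefSeq start of the members were searched on both strands for the core motif CTTTGAT and the related form CTTTGTT. The form CTTTGAA was searched in the same way, and CTTTGTA was the last form searched. Of the 10 members 6 had a RefSeq promoter in GRCm38.p6, and 3 of these held a motif, against 14.8% of all 32851 RefSeq promoters of the same length. A match is a run of letters and not a shown binding site. The 3 stretches with a match are shown because their genes are compared throughout, and they come from chr7:140763639-140763735 on the plus strand, chr2:102706188-102706282 on the plus strand and chr13:56548539-56548615 on the minus strand, with the motif in capitals.
Cyp2e1: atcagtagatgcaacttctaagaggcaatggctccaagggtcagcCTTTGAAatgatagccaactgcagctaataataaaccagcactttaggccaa
Slc1a2: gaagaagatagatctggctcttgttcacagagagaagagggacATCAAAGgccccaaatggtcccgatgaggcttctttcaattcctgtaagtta
Lect2: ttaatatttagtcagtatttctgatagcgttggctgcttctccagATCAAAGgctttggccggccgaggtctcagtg
The *Cyp2e1* motif is CTTTGAA and begins 135 bases before the RefSeq start. The *Slc1a2* and *Lect2* motifs are CTTTGAT read on the other strand, and they begin 207 and 32 bases before the RefSeq start. The *Slc1a2* stretch lies inside the gene as placed in the count files, with the coordinates given below, and not before its first base. The windows of *Glul*, *Oat* and *Axin2* held none of the 4 letter runs.

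Counts were compared with edgeR, and a gene was called where its absolute log2 fold change was over 1 and its p, adjusted after Benjamini and Hochberg, was under 0.05. In in vitro spheroids against hepatocyte preparations 9 of the 10 members were called lower and 0 higher, where 9.11% of all 12247 tested genes were lower and 8.13% higher. The count of 9 was the same with DESeq2, fell to 6 with limma-voom, and fell to 5 without spheroid 1 and to 6 without spheroid 2. In irises against livers 6 members were lower and 2 higher, against 22.1% and 29.8% of 15459 genes. In explants against irises 4 members were higher and 0 lower, against 6.16% and 0.316% of 16764 genes, and 1 member was lower at an unadjusted p under 0.05 in edgeR. In hepatocyte preparations against livers 0 members were called in either direction, against 0.409% higher and 2.31% lower of 12236 genes. There edgeR and limma-voom gave 0 members and DESeq2 gave 1 with an unadjusted p under 0.05, and both other tools called 0. Scaling by library size alone in place of TMM moved the median of all genes from 0.11 to 0.80 in irises against livers and from 0.01 to 0.27 in spheroids against preparations. The genes called were then 6803 higher and 1973 lower in irises, in place of 4606 and 3422, and 1531 higher and 808 lower in spheroids, in place of 996 and 1116, while the member counts of these comparisons did not change. Levels are given as TPM (transcript abundance scaled for gene length and depth) before any correction for iris unless stated.

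**Figure D1:**
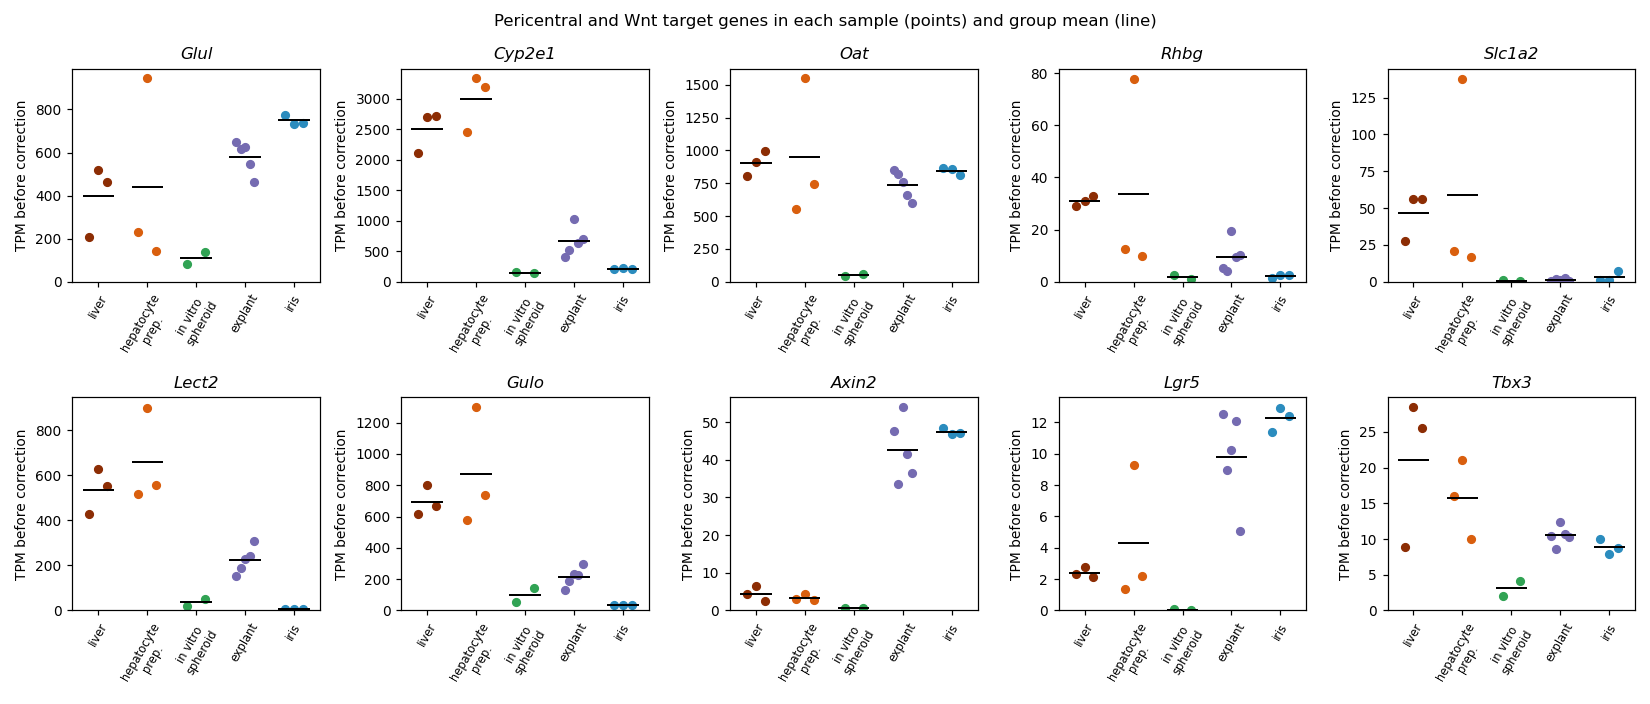
Points give the TPM before correction of each of the 16 samples, with 1 panel per member and its own axis from 0, and black lines give group means. Both in vitro spheroid samples lie low in every panel, *Glul*, *Oat*, *Axin2* and *Lgr5* are high in irises, and hepatocyte preparation 2 is the highest of the 3 preparations for all 10 members.

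The genes of ammonium and glutamate handling did not share 1 pattern. *Glul* (ENSMUSG00000026473, mm10 chromosome 1, 153899944 to 153909723) encodes glutamine synthetase, which in liver marks the hepatocytes that touch the central vein. It was at 205, 520 and 463 TPM in livers 1, 2 and 3 and at 230, 947 and 141 TPM in hepatocyte preparations 1, 2 and 3. It was at 81.9 and 137 TPM in the in vitro spheroids, at 776, 732 and 739 TPM in irises, and at 648, 618, 623, 545 and 465 TPM in explants 1, 2, 4, 5 and 6. Every iris was above every explant, the spheroids were below every other sample, and the ranges of livers, preparations and explants overlapped. The count test gave *Glul* a log2 fold change of 0.01 ± 0.31 SE (adjusted p = 0.977) in irises against livers, while its mean TPM in irises was 189% of that in livers. With library size scaling the value was 0.71 (adjusted p = 0.0501). Without liver 1, the lowest of the livers, the value was −0.35 (adjusted p = 0.00387). In explants it was lower than in irises by a small amount (−0.28 ± 0.08 SE, adjusted p = 0.0474) that lay within the fold limit. It was the one member not called between in vitro spheroids and preparations (−2.29 ± 0.79 SE, adjusted p = 0.0672), where the 3 preparations themselves spread from 141 to 947 TPM and the value without preparation 2 was −1.05.

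*Slc1a2* (ENSMUSG00000005089, chromosome 2, 102658659 to 102790784) encodes the glutamate transporter GLT-1, which is confined to pericentral hepatocytes in liver and abundant in astrocytes. It was at 27.3, 56.4 and 56.0 TPM in livers and at 20.9, 138 and 16.8 TPM in preparations. In explants it was at 0.705, 1.60, 0.929, 2.48 and 0.583 TPM, in irises at 1.37, 1.32 and 7.30 TPM, and in in vitro spheroids at 0.810 and 0.490 TPM. All livers and preparations were above all samples of the other 3 groups, and those 3 groups overlapped except that irises and spheroids did not. The gene fell by 6.79 on the log2 scale in spheroids against preparations (SE 1.22, adjusted p = 0.00679) and by 4.70 in irises against livers (SE 0.63, adjusted p = 0.000139). Without preparation 2 it fell by 5.15 in spheroids, and without iris 3 it fell by 6.00 in irises, both still called. Explants against irises missed the threshold (−1.29 ± 0.63 SE, adjusted p = 0.219), with iris 3 above and the other irises within the range of the explants.

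*Rhbg* (ENSMUSG00000104445, chromosome 3, 88242874 to 88254709), an ammonium transporter, had its own pattern. It was at 29.1, 30.9 and 33.02 TPM in livers, at 12.7, 77.9 and 9.75 TPM in preparations, at 2.35 and 0.831 TPM in in vitro spheroids and at 1.24, 2.65 and 2.51 TPM in irises. Explants held 5.06, 4.23, 19.4, 9.29 and 10.1 TPM, all above all irises and all below all livers. The gene was higher in explants than in irises (log2 fold change 2.25 ± 0.56 SE, adjusted p = 0.0310). This call rested on few counts, 4 to 8 in each iris, and it was lost without explant 5 (adjusted p = 0.0544) and without irises 1, 2 or 3 (0.135, 0.0987 and 0.101). *Rhbg* fell by 4.66 in spheroids against preparations (SE 1.17, adjusted p = 0.0244), or by 3.08 without preparation 2, and with 1 of the 2 spheroid samples left out the adjusted p was 0.115 or 0.131. It shares 1190 exonic bases with *Gm38392* on the same strand, and reads there were counted for both genes.

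*Oat* (ENSMUSG00000030934, chromosome 7, 132557475 to 132576398) encodes ornithine aminotransferase, a mitochondrial enzyme that links ornithine to glutamate. It was at 808, 909 and 995 TPM in livers, at 557, 1549 and 746 TPM in preparations, at 867, 861 and 812 TPM in irises and at 602 to 851 TPM in explants, and these 4 groups overlapped with their neighbours in level. In vitro spheroids stood far below them at 40.6 and 59.0 TPM. The fall against preparations was 4.56 on the log2 scale (SE 0.54, adjusted p = 0.00142), to 5.24% of the preparation mean. Between irises and livers the count test gave −0.99 (SE 0.12, adjusted p = 6.31e-05), just within the fold limit, and past it with RLE size factors, with DESeq2 (both −1.01) and without liver 1 (−1.12), whereas library size scaling gave −0.30.

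The metabolic and secreted members were all higher in explants than in irises. *Cyp2e1* (ENSMUSG00000025479, chromosome 7, 140763739 to 140774975), the cytochrome P450 that oxidises ethanol and other small molecules, was at 2110, 2698 and 2709 TPM in livers and at 2449, 3332 and 3187 TPM in preparations. It was at 152 and 137 TPM in in vitro spheroids, at 208, 228 and 206 TPM in irises and at 404, 523, 1026, 638 and 700 TPM in explants. Of these 5 groups only livers and preparations overlapped. The gene was higher in explants than in irises (1.72 ± 0.26 SE, adjusted p = 0.00341) and fell by 4.71 in spheroids against preparations (SE 0.30, adjusted p = 0.000123). *Cyp2e1* reached 1.41 counts per base in a library. Duplicate removal was assumed here to set a ceiling at 1.7 counts per base, which was not tested. With that assumed ceiling undone *Cyp2e1* fell by 5.57 in spheroids, and the 1.72 became 1.91.

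*Lect2* (ENSMUSG00000021539, chromosome 13, 56542460 to 56548538), a protein secreted by hepatocytes, had an iris level that was 1.31% of its liver level. It was at 429, 627 and 554 TPM in livers, at 518, 902 and 556 TPM in preparations, at 21.7 and 50.5 TPM in in vitro spheroids and at 6.16, 6.59 and 8.30 TPM in irises. In explants it was at 154, 191, 230, 243 and 309 TPM, so that no explant overlapped with any other group. The gene was higher in explants than in irises by 5.10 on the log2 scale (SE 0.34, adjusted p = 0.000118) and fell by 4.49 in spheroids against preparations (SE 0.46, adjusted p = 0.000845). *Gulo* (ENSMUSG00000034450, chromosome 14, 65986787 to 66009210), the last enzyme of vitamin C synthesis, was at 618 to 799 TPM in livers, 577 to 1297 TPM in preparations, 53.0 and 144 TPM in spheroids and 32.6 to 34.9 TPM in irises. Explants held 130, 187, 233, 225 and 299 TPM, above all irises and overlapping with the spheroids. *Gulo* was higher in explants than in irises (2.77 ± 0.29 SE, adjusted p = 0.000498) and fell by 3.42 in spheroids against preparations (SE 0.57, adjusted p = 0.00526).

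The Wnt targets *Axin2* and *Lgr5* were higher in irises than in livers. *Axin2* (ENSMUSG00000000142, chromosome 11, 108920349 to 108950783) is a feedback inhibitor of the pathway and a scaffold of the complex that degrades β-catenin. It was at 4.30, 6.52 and 2.51 TPM in livers, at 2.92, 4.47 and 2.78 TPM in preparations and at 0.690 and 0.731 TPM in in vitro spheroids. In irises it was at 48.5, 46.7 and 47.04 TPM and in explants at 47.6, 33.6, 53.9, 41.6 and 36.6 TPM, and both groups overlapped and lay above all others. *Axin2* was higher in irises than in livers (2.53 ± 0.26 SE, adjusted p = 2.73e-05), explants against irises missed the threshold (−0.06 ± 0.11 SE, adjusted p = 0.759), and spheroids were lower than preparations (−2.55 ± 0.48 SE, adjusted p = 0.00817) with 5 counts in each spheroid sample.

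*Lgr5* (ENSMUSG00000020140, chromosome 10, 115450311 to 115587780), a receptor for R-spondins, was at 2.31, 2.74 and 2.12 TPM in livers and at 1.36, 9.29 and 2.19 TPM in preparations. Every liver was below every iris and every explant. Irises held 11.4, 12.9 and 12.4 TPM and explants 12.5, 8.97, 10.3, 12.1 and 5.08 TPM. The gene was higher in irises than in livers (1.47 ± 0.18 SE, adjusted p = 8.05e-05). In in vitro spheroids 1 and 2 it had 1 and 0 counts. Taking 3 counts in a sample as the floor, its share of counts was at least 19.1-fold lower than the mean of the preparations. It was at least 10.5-fold lower than that of the livers. The floor is one for 0 counts, and spheroid 1 had 1 count. Without preparation 2 the first bound was 8.01-fold. *Tbx3* (ENSMUSG00000018604, chromosome 5, 119670669 to 119684724), a T-box repressor, was lower in irises than in livers, unlike *Axin2* and *Lgr5* (−2.14 ± 0.40 SE, adjusted p = 0.00104). Livers held 8.94, 28.5 and 25.6 TPM, preparations 15.96, 21.1 and 10.05 TPM, irises 7.95 to 9.96 TPM and explants 8.57 to 12.4 TPM, with neighbouring groups overlapping. In in vitro spheroids it was at 2.07 and 4.13 TPM, below all other samples (−2.65 ± 0.43 SE against preparations, adjusted p = 0.00472).

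The means of the members in spheroids were 0.865% (*Lgr5*) to 24.9% (*Glul*) of those in preparations. Without preparation 2 they were 2.08% (*Lgr5*) to 58.9% (*Glul*), with *Axin2* and *Tbx3* at 24.9% and 23.8% and the other 6 at 3.45% to 14.97%. Of the hepatocyte markers, *Alb*, *Apoa1*, *Hnf4a* and *Cyp3a11* were at 104% to 107% of their preparation means, and *Ttr*, *Tat* and *Asgr1* at 80.1%, 75.9% and 62.9%. *Alb* reached 1.44 to 1.64 counts per base in the libraries of both groups, near the assumed ceiling of duplicate removal, which would compress its ratio. Over 347 liver-restricted genes the median log2 ratio to the liver mean was −1.11 and −0.81 in the spheroids and 0.03 to 0.06 in the preparations. Of 7 hepatocyte markers 0 were called by edgeR, and 3 were lower at an unadjusted p under 0.05. Of 20 other pericentral genes 12 were lower and 0 higher, the largest falls being those of *Cyp2c54*, *Cyp2c50*, *Cyp2c37* and *Rgn* (−8.04, −6.48, −6.31 and −5.86). The *Cyp2c* genes are near copies of each other, and reads could be split between them. Of 20 periportal genes 11 were lower and 0 higher, led by *Hsd17b6*, *Etnppl*, *Sult5a1* and *Pigr* (−7.15, −5.06, −4.98 and −4.81), so genes of both zones fell. The median log2 fold change was −4.53 over the members, −2.19 over the other pericentral genes, −2.68 over the periportal genes and 0.01 over all genes tested. Kupffer cell markers summed to 469 and 511 TPM in the spheroids and to 101 to 200 TPM in the preparations, and sinusoidal endothelial markers to 67.1 and 71.1 against 55.8 to 180 TPM. Of 5 tested sinusoidal endothelial markers 2, *Clec4g* and *Stab2*, were lower (−2.54 and −1.58) and 1, *Lyve1*, was higher (1.41). The part of these other cells in the result was not tested. In such bulk samples fewer cells of a type and less RNA per cell cannot be told apart.

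**Figure D2:**
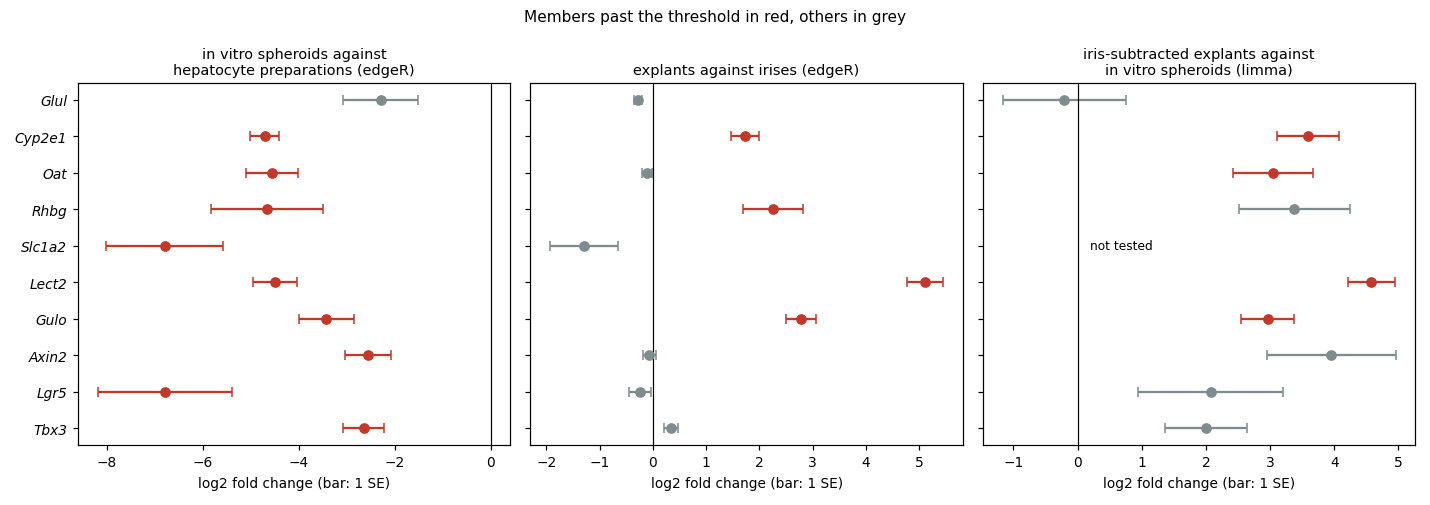
Log2 fold changes of the members with 1 SE in 3 comparisons, red where the member passed the threshold and grey where it did not. Spheroids kept in vitro lie below preparations for all 10 members, 4 members rose in explants against irises, and the same 4 genes apart from *Rhbg*, with *Oat* added, passed in iris-subtracted explants against in vitro spheroids.

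Since an explant holds both graft and iris, its levels were also read against a mixture. The iris share solved from the deposited tables was 82%, 68%, 81%, 72% and 59% in explants 1, 2, 4, 5 and 6. The iris term, which is this share of the iris mean, made up 82.4% to 98.97% of the *Glul* TPM in explants, 71.3% to 95.9% of that of *Axin2* and 70.4% to 92.5% of that of *Oat*. It made up 1.34% to 3.74% of *Lect2*, 6.71% to 21.4% of *Gulo*, 8.90% to 34.6% of *Rhbg* and 16.9% to 43.4% of *Cyp2e1*. For *Slc1a2* and *Lgr5* it reached 387% and 142%, that is, it exceeded the whole measured level in at least 1 explant. The iris mean of *Slc1a2* rested on iris 3, and without it the iris term was 39.1% to 157% of the explant level.

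*Slc1a2* lay far below a mixture of iris and liver in all explants. A mixture of iris and liver in the solved shares would hold 11.1 to 21.1 TPM of it, of which 8.38 to 19.1 TPM come from the liver part, and the explants held 2.77% to 16.1% of that mixture. *Lect2* lay the other way, at 108% to 214% of its mixture in all 5 explants. *Cyp2e1* was at 55.2% to 158%, *Rhbg* at 37.2% to 255% and *Gulo* at 76.2% to 146%, with explant 4 the highest in each. *Glul* was at 76.9% to 97.1%, *Oat* at 69.2% to 99.3%, *Tbx3* at 67.1% to 111%, *Lgr5* at 61.9% to 128% and *Axin2* at 99.9% to 137%. With iris subtracted, 347 liver-restricted genes were themselves below the liver mean, at median log2 ratios of −1.11 to −0.49 in the explants.

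**Figure D3:**
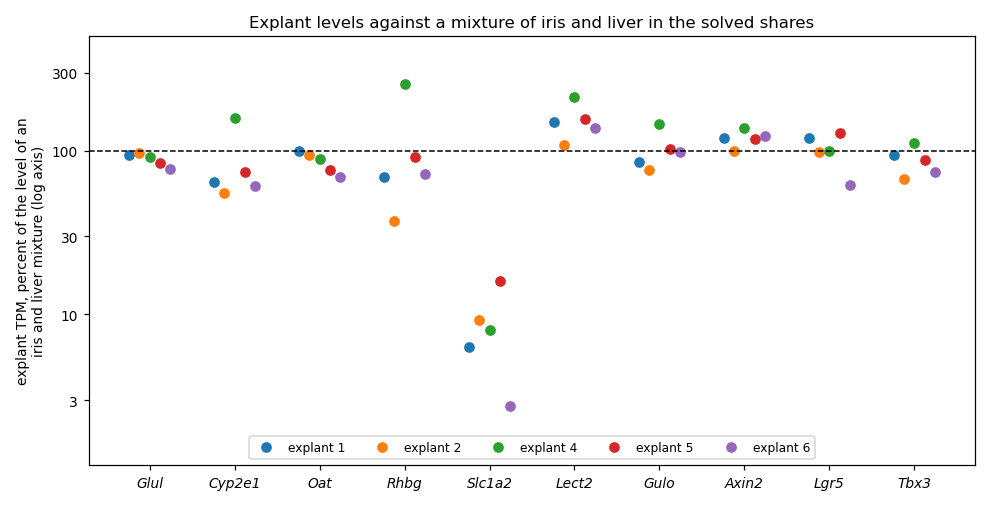
Each point is 1 of the 5 explants, and its height on a log axis is the measured TPM as a percent of the level that iris and liver mixed in the solved shares would have, with the dashed line at 100%. *Slc1a2* lies at 2.77% to 16.1% in all explants and *Lect2* at 108% to 214%.

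After the iris term was subtracted and the rest divided by the graft share, values were tested with limma on log2(TPM + 1), a scale that understates changes of low genes. The median over all genes was itself shifted, by 0.59 against livers, 0.73 against preparations and 0.55 against in vitro spheroids. Against livers 1 member was lower and 0 were higher, where 2.82% and 10.5% of 22878 genes were. Against preparations 1 was lower and 0 higher, where 3.05% and 14% of 22612 genes were. In both cases it was *Slc1a2*, by −5.43 (SE 0.49, adjusted p = 0.000575) and by −5.17 (SE 0.71, adjusted p = 0.00138), with a subtracted level of 0 in 4 explants and 0.291 TPM in explant 5. With iris 3 left out of the iris mean, explants 2 and 5 were at 2.13 and 5.39 TPM and the other 3 at 0, all below the lowest liver at 27.3 TPM. With TPM before correction *Axin2* and *Lgr5* were higher and 5 members lower than in livers, and the same 2 genes were higher and 4 members lower than in preparations. At an unadjusted p under 0.05 in limma, 2 members were higher and 3 lower than in livers (*Slc1a2*, *Glul* and *Oat*), and 1 was higher and 1 lower than in preparations.

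The other 9 members missed the threshold against livers, most of them with wide errors. Subtracted *Lect2* was at 581 to 1182 TPM in explants (log2 difference 0.62 ± 0.23 SE, adjusted p = 0.113), *Gulo* at 513 to 1080 TPM (−0.01 ± 0.24 SE, adjusted p = 0.984) and *Cyp2e1* at 1178 to 4486 TPM (−0.51 ± 0.40 SE, adjusted p = 0.411). *Rhbg* was at 8.68 to 93.0 TPM (−0.31 ± 0.64 SE, adjusted p = 0.742). *Glul* was at 189, 339, 86.5, 20.1 and 55.4 TPM (−1.99 ± 0.81 SE, adjusted p = 0.140), *Oat* at 178 to 871 TPM (−1.13 ± 0.50 SE, adjusted p = 0.167) and *Tbx3* at 7.88 to 27.6 TPM (−0.31 ± 0.52 SE, adjusted p = 0.681). *Axin2* was at 4.33 to 81.4 TPM (2.35 ± 0.82 SE, adjusted p = 0.0903) and passed without explant 2 (2.93, adjusted p = 0.0153). With samples centred on 347 liver-restricted genes *Axin2* (3.28, adjusted p = 0.0282) and *Lect2* (1.54, adjusted p = 0.0106) passed. Of 7 iris markers 1, *Pax6*, was itself higher than in livers after subtraction (3.77, adjusted p = 0.00662 in limma), and 0 were lower. By least squares the iris shares were 84.4%, 70.6%, 82.1%, 75.3% and 62.4% in explants 1, 2, 4, 5 and 6, each larger than the share subtracted. From iris-specific genes they were 89.0%, 69.8%, 88.0%, 81.5% and 56.2%, smaller than the share subtracted in explant 6 and larger in the others. How much iris RNA remains in the subtracted *Axin2* level was not tested. *Cyp2e1* was lower than in preparations without explant 4 (−1.10, adjusted p = 0.00403), the explant in which it was highest.

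Against in vitro spheroids the iris-subtracted explants were higher for 4 of the 9 members tested and lower for 0, against 4.37% and 0.951% of 22706 genes. These were *Lect2* (4.58 ± 0.37 SE, adjusted p = 0.000892), *Cyp2e1* (3.59 ± 0.48 SE, adjusted p = 0.00677), *Gulo* (2.96 ± 0.42 SE, adjusted p = 0.00742) and *Oat* (3.04 ± 0.62 SE, adjusted p = 0.0301). *Slc1a2* was under 1 TPM in both groups and was not tested. *Axin2* (3.95 ± 1.00 SE, adjusted p = 0.0640) and *Rhbg* (3.38 ± 0.86 SE, adjusted p = 0.0660) missed the threshold, and *Glul* was at −0.21 ± 0.96 SE (adjusted p = 0.902). The call of *Oat* depended on the iris share, with an adjusted p of 0.142 when the share was estimated by least squares and 0.764 when it came from iris-specific genes. With only 2 spheroid samples, leaving out spheroid 1 left 1 call and leaving out spheroid 2 left 2.

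Among the 3 hepatocyte preparations, number 2 stood apart along the zone axis. It was the highest preparation for 10 of 10 members and for 17 of 20 other pericentral genes, and the lowest for 19 of 20 periportal genes. Against the mean of the other preparations on the log2(TPM + 1) scale, *Slc1a2*, *Rhbg* and *Glul* were higher by 2.39 to 2.82, *Lgr5* was higher by 1.91, *Oat* by 1.26 and *Gulo* by 0.99, and *Cyp2e1* by 0.25. The periportal genes had a median of −1.43, and the periportal P450 *Cyp2f2* was at 192 TPM against 1418 and 1525 TPM. The 7 hepatocyte markers had a median of −0.01. For 7 of the 10 members all 3 technical libraries of preparation 2 were above all 6 of the other preparations, and for 19 of 20 periportal genes all 3 were below. Leaving it out turned the direction of *Rhbg*, *Slc1a2*, *Glul*, *Lgr5* and *Oat* in preparations against livers (to −1.31, −1.16, −0.96, −0.27 and −0.31), with 0 members called. In spheroids against preparations 9 members were lower with or without it. Among livers, number 1 was the lowest for 8 of 10 members and for 15 of 20 other pericentral genes, and the highest for 15 of 20 periportal genes. Among explants, number 4 was the highest for 4 members and the lowest for 15 of 20 periportal genes, with a periportal median of −1.10 against the other explants. It was the highest for 3 of 19 other pericentral genes (median 0.03), and explant 6 was the highest for 13 of them. These explant values are before iris subtraction, and the iris share was 81% in explant 4 and 59% in explant 6. Over 347 liver-restricted genes the median log2 ratio to the liver mean was −3.05 in explant 4 and −1.72 in explant 6. Explant 6 was also the highest for 5 of 7 hepatocyte markers and 9 of 20 periportal genes. The part of the iris share in these ranks was not tested.

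**Figure D4:**
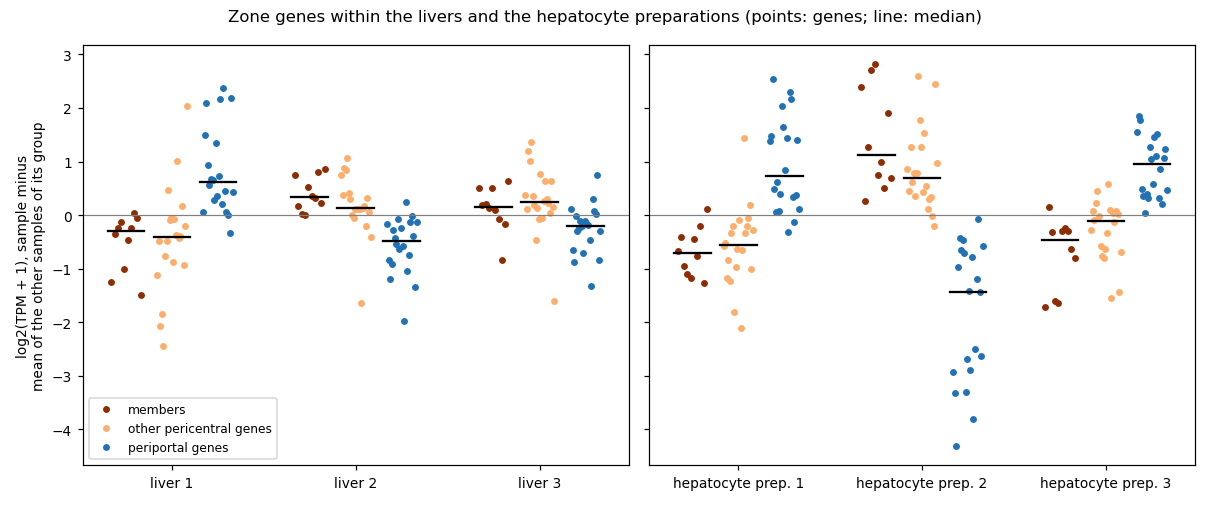
Each point is 1 gene, and its height is the log2(TPM + 1) of a sample minus the mean of the other 2 samples of its group, with livers on the left and hepatocyte preparations on the right and black lines at medians. In preparation 2 the members lie at a median of 1.13 and the periportal genes at −1.43, and in liver 1 they lie at −0.30 and 0.61.

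The ligands that set the pericentral zone differed between the groups too. *Wnt2*, an endothelial ligand of the central vein, averaged 6.70 ± 4.40 TPM in livers (SD, n = 3), 4.24 ± 2.60 in preparations (n = 3), 9.99 ± 1.49 in irises (n = 3) and 17.2 ± 4.72 in explants (n = 5), and had 0 counts in both spheroid samples. It was lower in spheroids than in preparations (adjusted p = 0.0167), where 3 counts per sample is the most that 0 allows. The preparations held only 4 to 21 counts of it. In explants against irises it missed the threshold (0.89 ± 0.28 SE, adjusted p = 0.0737), and after iris subtraction it was higher than in livers (2.30 ± 0.53 SE, adjusted p = 0.0209). *Rspo3*, the R-spondin of the central vein, averaged 13.4 ± 4.38 TPM in livers, 2.27 ± 1.84 in preparations, 2.45 ± 0.132 in spheroids (n = 2), 2.48 ± 0.322 in irises and 1.54 ± 0.481 in explants. It was lower than in livers in preparations (−2.38 ± 0.52 SE, adjusted p = 0.0471), in irises (−3.28 ± 0.33 SE, adjusted p = 2.27e-05) and in iris-subtracted explants (−3.54 ± 0.50 SE, adjusted p = 0.00296). *Wnt9b* had at most 4 counts in any sample and passed no filter.

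Genes of the wider pathway are read here against the 29.8% of all genes higher and 22.1% lower in irises than in livers. Of 15 tested Wnt ligands and R-spondins 10 were higher and 3 lower in irises than in livers. The higher ones were led by *Wnt11*, which had 0 counts in all livers and so no fold, and by *Rspo2*, *Wnt10a* and *Wnt16* (5.85, 5.74 and 5.50). The 3 lower were *Rspo3*, *Wnt4* and *Wnt5b*. In TPM *Wnt5b* was at 16.4 to 21.4 in livers and at 15.8 to 17.8 in irises. *Wnt4* was at 1.41 to 3.65 TPM in livers and at 0.612 to 2.15 TPM in irises, so both genes overlapped between the groups. The part of TMM scaling in these 3 calls was not tested. Of 10 tested inhibitors 7 were higher, led by *Dkk2*, *Wif1*, *Sostdc1* and *Sfrp1* (5.93, 5.76, 5.32 and 4.68), and 1, *Tle1*, was lower. Of 27 receptors and transducers 9 were higher and 4 lower, near the share over all genes, and of 14 other Wnt targets 8 were higher, led by *Apcdd1*, *Bmp4*, *Ephb3* and *Ephb2* (4.65, 3.85, 3.70 and 3.67), and 3 were lower (*Myc*, *Ccnd1* and *Rnf43*). In explants against irises 0 ligands, 0 receptors and 0 inhibitors were called in edgeR (5, 6 and 1 at an unadjusted p under 0.05), while 2 of 14 other targets, *Myc* (1.31) and *Ccnd1* (1.17), were higher. In spheroids against preparations *Wnt4* was higher (7.40, with 0 to 1 counts in each preparation), as was *Porcn*, the enzyme that acylates Wnt ligands (1.18), and of the other targets *Notum*, a Wnt deacylase, was lower (−6.06, with 1 and 2 counts in the spheroids), as was *Znrf3* (−1.29).

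Most other pericentral genes were higher in explants than in irises. Of 19 tested, 14 were higher in explants than in irises and 0 lower, led by *Cyp7a1*, *Gstm3* and *Cyp2c50* (5.28, 5.04 and 4.26), with a median of 2.86, and of 20 periportal genes 13 were higher with a median of 3.31, against a median of 0.01 over all genes. After iris subtraction 5 of 20 pericentral genes were lower than in livers (*Slc22a3*, *Ces1d*, *Prodh2* and *Cyp1a2*, at −2.79, −1.66, −1.52 and −1.47, and 1 more) and 3 were higher (*Gstm3*, *Cldn2* and *Avpr1a*, at 2.43, 1.43 and 1.18), while of 20 periportal genes 4 were lower and 1 higher. Over all genes 10.5% were higher and 2.82% lower, so that the counts of higher genes were near the share over all genes. Against in vitro spheroids 6 of 19 were higher, led by *Cyp2c50*, *Cyp2c54*, *Rgn* and *Cyp2c37* (5.09, 4.67, 4.56 and 3.39), and 1, *Aldh1a1*, was lower (−1.40). Medians over these lists were −1.02 for pericentral and −0.93 for periportal genes against livers, where the members had −0.31 and all genes 0.59. Over 347 liver-restricted genes the median log2 ratio to the liver mean was −1.11, −0.55, −0.87, −0.78 and −0.49 in iris-subtracted explants 1, 2, 4, 5 and 6. The medians of both zone lists lay within that range.

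In irises *Alb*, *Ttr* and *Apoa1* were at 25.2%, 20.5% and 11.7% of their liver means, *Cyp2e1* at 8.53%, *Gulo* at 4.89% and *Lect2* at 1.31%, while *Hnf4a*, a transcription factor of hepatocytes, was at 0.788%, *Asgr1* at 1.29%, *Tat* at 1.18% and *Cyp3a11* at 4.10%. *Alb* in livers was at 1.53 to 1.60 counts per base and *Apoa1* at 1.13 to 1.23. The assumed ceiling of duplicate removal would compress such ratios. These ratios are of TPM, and the count test with TMM gave *Alb*, *Ttr* and *Apoa1* lower log2 fold changes, of −2.88, −3.18 and −3.98. Hepatocyte markers summed to 1344 to 1603 TPM in irises, 4367 to 5873 in explants and 9883 to 10819 in livers. Iris markers summed to 6374 to 6598 TPM in irises, 4553 to 5751 in explants and 325 to 351 in livers. The origin of hepatocyte RNA in irises was not tested.

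Over the 16 samples the genes with the most similar pattern, by the root mean square difference of log2(TPM + 1) centred per gene among 13666 genes of at least 5 TPM, were *Tbx3os1*, *Npr2* and *Cib2* for *Glul* (0.376 to 0.416) and *Notum*, *Igf1* and *Abca8a* for *Oat* (0.332 to 0.587). For *Cyp2e1* they were *Apol9b*, *Car3* and *Albfm1* (0.471 to 0.498), for *Lect2* *Akr1c6*, *C8a* and *Serpina6* (0.485 to 0.496) and for *Gulo* *Degs1l*, *Albfm1* and *Akr1c6* (0.436 to 0.528). For *Axin2* they were *Pdzrn3*, *Add3* and *Spry2* (0.317 to 0.337), for *Lgr5* *Trmt9b* and *Pkdcc* (0.321 and 0.414) and for *Tbx3* *Isoc2a*, *Gpcpd1* and *Sycp3* (0.352 to 0.405). The nearest to *Rhbg* was *Gm38392* (0.258), which shares its exons, followed by *Cyp2e1* and *Lad1* (0.693 and 0.747), and the nearest to *Slc1a2* was *Gm13872* (0.406), which shares 189 exonic bases on the other strand, followed by *Car1* and *Paqr9* (0.900 and 0.921).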

How the data were processed

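The authors aligned reads to mm10 with TopHat2, removed duplicates with UMI-tools and SAMtools, and counted exonic reads per gene with featureCounts 1.4.6-p5, without strand and counting a read over several genes for each. The deposited counts of 48 technical libraries were summed to 16 samples, and these sums equalled the deposited count table in 100% of cells. The TPM deposited by the authors equal those recalculated from counts and exonic lengths. The authors also deposited a corrected table of score values, TPM from which the iris mean times an iris share was subtracted. Solving it gave the shares used here, but its column for explant 4 subtracted the iris mean minus the share, so the formula of the methods was applied afresh to all 5 explants, with negative values set to 0. The deposited files hold no fold changes or p-values that were used.

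The 2 groups of a comparison were fitted in edgeR 4.0.16 by the quasi-likelihood method, with TMM scaling and the filterByExpr filter, and iris-subtracted TPM with limma 3.58.1 (trend) on log2(TPM + 1) for genes with a mean of at least 1 TPM in either group, in R 4.3.3, over all genes, with Benjamini-Hochberg adjustment. DESeq2 1.42.0 and limma-voom were alternatives. Ratios without preparation 2 and iris terms without iris 3 were chosen after seeing the data. Both tests were checked on simulated counts drawn with the same dispersion (spread beyond counting error) for every gene. The simulation held no iris mixture and no subtraction, so it did not check the test on iris-subtracted values. The SE of an edgeR fold change is its size divided by the square root of F. The precision of a value is limited by its count, of which the totals per sample give the depth, and a floor of 3 counts covers counting error only. The members and gene lists were chosen with earlier results of these data known. Named are all 10 members, *Wnt2*, *Wnt9b* and *Rspo3*, at most 4 called genes per list and direction with the largest fold changes, and the 3 genes nearest in pattern to each member, apart from some that are not reported here. Genes named outside this rule (*Cyp2f2* and the genes of the closing section) were chosen after their values were seen. RefSeq promoters are on GRCm38.p6, and gene coordinates are those of the count files on mm10.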

Additional observations from a re-analysis of the deposited data

Results flagged for a closer look

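Among the 5 explants the highest and lowest values of each member were compared with the rest, on TPM before correction and after iris subtraction, 20 groups of values in all, where chance marks about 1 in 20. Explant 4 stood apart for iris-subtracted *Cyp2e1*, at 4486 TPM with the next explant at 1728 TPM, and for iris-subtracted *Rhbg*, at 93.0 TPM with the next at 27.7 TPM. Before subtraction it was also the highest explant for both genes, at 1026 and 19.4 TPM, but not far enough from the others to be marked, and its iris share of 81% multiplies what is left after subtraction. Explant 5 was also marked for iris-subtracted *Slc1a2*, at 0.291 TPM, with the other 4 at 0. Negative values were set to 0, so beside 4 values of 0 any other value is marked, and the rate of 1 in 20 does not apply. Before subtraction explant 5 was at 2.48 TPM with the next explant at 1.60 TPM and was not marked. With iris 3 left out of the iris mean explant 5 was at 5.39 TPM and explant 2 at 2.13 TPM.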

How the results depend on the processing

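Of 1178 member fold changes recomputed under alternatives 1107 kept their side of the threshold, 29 lost it, 38 gained it and 4 turned direction with an adjusted p under 0.05, while 64 others changed sign without passing in either fit. Turned were *Glul* in irises against livers without liver 1 (−0.35; 0.26 without liver 2, the highest such value) and, with TPM before correction, *Lect2* in explants against livers (−1.27) and preparations (−1.54) and *Glul* against in vitro spheroids (2.43). Without a fold limit 1 member was lower in explants than in irises. With TPM before correction 2 members were higher and 5 lower than in livers, 2 higher and 4 lower than in preparations, and 9 higher than in in vitro spheroids. Centring on liver-restricted genes made 2 higher than in livers and 2 higher than in preparations, and a minimum of 10 TPM made 1 higher than in preparations. Deposited TPM without explant 4 gave 2 lower than in preparations. Leaving out 1 sample gave 5 to 10 members lower in spheroids against preparations, 0 to 1 higher than in livers, 0 to 1 higher and 1 to 2 lower than in preparations and 1 to 4 higher than in in vitro spheroids. With the replicate number as a replicate block 0 members were lower than in livers and 2 lower than in preparations. Correlations of same-numbered deviations lay between −0.12 and 0.21, which with so few samples per group cannot tell whether numbers pair samples. Under the block 3 members were higher in explants than in irises. Where calls were lost or gained under a setting the cause was not tested, apart from the fewer samples of the block, 2 of each group with explants.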

Other observations

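Liver 1, the lowest liver for 8 of 10 members, also stood apart in genes outside the lists, picked after their values were seen. *Cyp2b9* was at 307 TPM in it and at 0.375 and 0 TPM in livers 2 and 3, and *Cyp4a12a* at 35.4 against 348 and 336 TPM, while the Y-linked *Ddx3y* was at 49.9 to 54.7 TPM in the 3 livers. In hepatocyte preparation 2, *Cyp4a12a* was at 439 TPM, close to the 355 and 372 TPM of the other preparations. The *Cyp2b9* gene was at 32.4 and 19.3 TPM in the in vitro spheroids and at 0 to 1.49 TPM in the preparations.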
